A study of Physcomitrium patens with 6 samples.

Results

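Transposable elements (TEs) that gave no read in wild type protonema and were read in *Ppddm1* protonema numbered 545 of the 241351 TEs in the count table of the moss *Physcomitrium patens*. A TE was taken where all 3 wild type libraries had 0 counts and at least 2 of the 3 *Ppddm1* libraries had at least 1 count. The opposite set, TEs with 0 counts in all *Ppddm1* libraries and reads in at least 2 wild type libraries, held 114 TEs and is called the wild type-only set. Both sets were chosen by their counts in these 6 libraries, so their levels and sizes are given as a description and carry no test. The 545 TEs made up 0.226% of all TEs and 8.82% of the 6179 TEs with a count in any library.

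PolyA RNA was taken after 7 days of growth from protonema, the moss's filamentous juvenile stage, of strain Grandsen, kept on BCDAT medium at 25 °C under daily cycles of 16 h light then 8 h dark. The wild type had 3 libraries and so did *Ppddm1*, a single knockout plant in which a Zeocin resistance cassette replaced the PpDDM1 coding region. In both genotypes replicates 1 and 2 were labelled batch 1 and replicate 3 batch 2. Separate cultures are not stated, so the spread between the libraries of a genotype may be technical.

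DDM1 is a chromatin remodeler of the Snf2 family that gives DNA methyltransferases access to DNA wrapped in nucleosomes. Plants methylate cytosines of TEs in the CG, CHG and CHH contexts, and in flowering plants loss of DDM1 is known to release TEs from silencing. A TE transcript is seen here only if it carried a polyA tail. Reads with several matches, below a limit in the study's methods, had been assigned to a place at random, so a read on a TE can stem from a near-identical copy. In bulk tissue, fewer cells that transcribe a TE and less RNA of it per cell cannot be told apart. The TE identifiers are bare numbers that the files used here pair with no family, length or position. No sequence is therefore shown, and the tissue label was not checked against markers since gene names were not paired either.

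Count totals, taken here as depth, differed between the genotypes, which matters for a set defined by absent reads. The wild type libraries held 2784259, 4272928 and 6079718 counts over genes and TEs, and the *Ppddm1* libraries 3767473, 4105086 and 10536543. In sum the *Ppddm1* libraries held 1.40 times the counts of wild type. The library sizes listed in the paper differ less between the genotypes. Each size listed there for *Ppddm1* is below the count total of replicate 3, and the sources used here do not explain this. PpDDM1 itself (Pp3c17_19520) lay between 15.1 and 26.5 CPM in wild type and between 0.974 and 1.06 CPM in *Ppddm1*, where CPM are counts divided by the library total and scaled to 1000000 counts. TEs together took 0.684% to 0.722% of the counts of the wild type libraries and 0.701% to 0.721% of those of *Ppddm1*.

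Most of the 545 TEs rested on very few reads, and a small group carried a large part of the signal. They held 3085 counts in the *Ppddm1* libraries, with a median of 3 counts per TE and a highest value of 191. Exactly 2 counts, 1 in each of 2 libraries, lay behind 204 TEs (37.4%), and 3 counts behind another 114. Only 56 TEs had 10 or more counts, but these held 46.3% of the reads, and the 10 TEs that ranked highest by mean CPM held 23.4%. The wild type-only set had the same median of 3 counts, yet its highest TE had 9 counts and none reached 10.

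**Figure D1:**
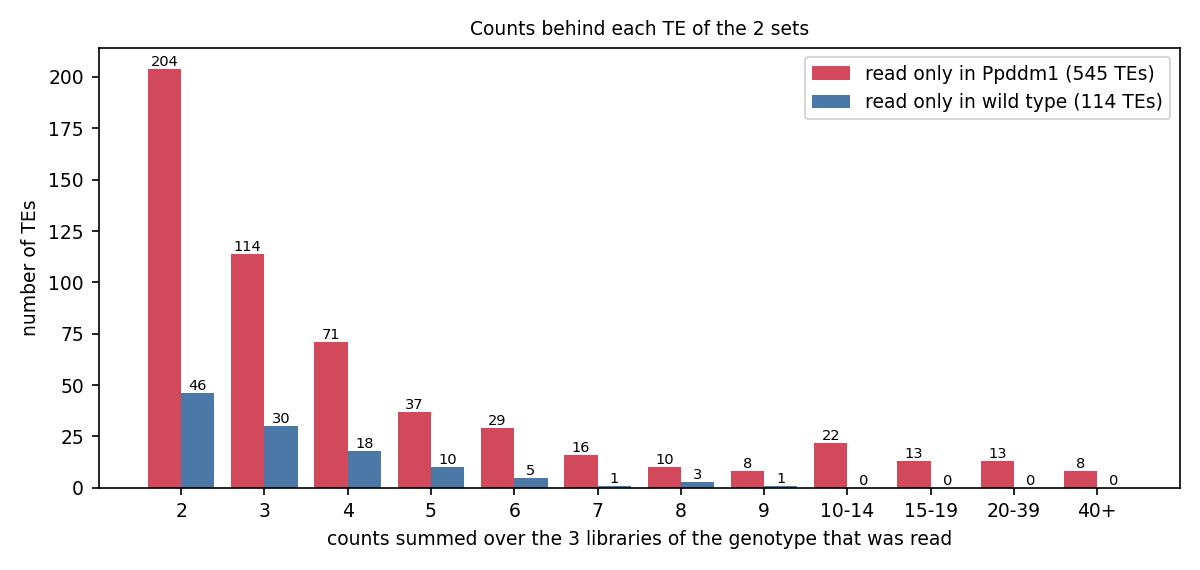
Number of TEs (vertical axis) by the counts summed over the 3 libraries of the genotype in which they were read (horizontal axis), for TEs read only in *Ppddm1* and only in wild type. Both sets pile up at 2 and 3 counts, and at 10 or more counts there are 56 TEs of the first set and 0 of the second.

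Their reads made up 2.37% of all TE counts in *Ppddm1*. The summed level of the 545 TEs was 190 CPM in *Ppddm1* replicate 1, 197 CPM in replicate 2 and 148 CPM in replicate 3, which gives 178 ± 26.6 CPM (SD, n = 3). Replicate 3, the deepest library, had the most TEs with a read but the lowest summed level. A read was found in 354, 400 and 492 of the 545 TEs in replicates 1, 2 and 3. The wild type-only set summed to 24.8, 26.2 and 31.7 CPM in the 3 wild type libraries, or 27.6 ± 3.68 CPM (SD, n = 3). Without the 10 TEs of highest mean CPM, the summed level of the *Ppddm1*-only set was 137 ± 20.04 CPM (SD, n = 3).

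The TE with the highest level, identifier 851079, had 48, 43 and 100 counts in *Ppddm1* replicates 1 to 3. That is 12.7, 10.5 and 9.49 CPM, with a mean of 10.9 ± 1.67 CPM (SD, n = 3). All 3 libraries lay close together, and this TE alone held 6.19% of the reads of the set. A count of 0 over the 13136905 wild type counts allows a level of up to 0.228 CPM (3 counts over the group, counting error only). The pooled *Ppddm1* level of this TE was 45.4 times that limit. Such multiples allow for no error in the *Ppddm1* level.

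The second TE, identifier 816169, had 14, 54 and 60 counts, or 3.72, 13.2 and 5.69 CPM in *Ppddm1* replicates 1 to 3. Unlike the first, it was uneven, with replicate 2 far above the others and a mean of 7.52 ± 4.98 CPM (SD, n = 3). Its pooled level was 30.4 times the same wild type limit. The third TE by level had 5.84, 7.06 and 3.99 CPM, and the fourth 3.72, 5.36 and 4.37 CPM. For these, too, each *Ppddm1* library held many reads, from 14 to 46 counts, and the pooled level was 22.1 and 19.5 times the limit.

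Below these, the levels fell off quickly. The TEs ranked 5 to 8 had means of 2.86, 2.62, 2.56 and 2.31 CPM, neighbours in this order that lay well within each other's spread. Of them, the TE ranked 7 was the most even, with 2.65, 2.19 and 2.85 CPM in replicates 1 to 3. The TEs ranked 9 to 15 had means from 1.45 down to 1.32 CPM. Among these, the TE ranked 14 was carried by replicate 2, with 2, 13 and 5 counts. Of the 15 highest, 9 had their highest CPM in replicate 2, 5 in replicate 1 and 1 in replicate 3. The pooled level ran from 4.76 to 45.4 times the wild type limit among these 15. CPM are not divided by length, so this order is one of reads and not of transcripts.

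**Figure D2:**
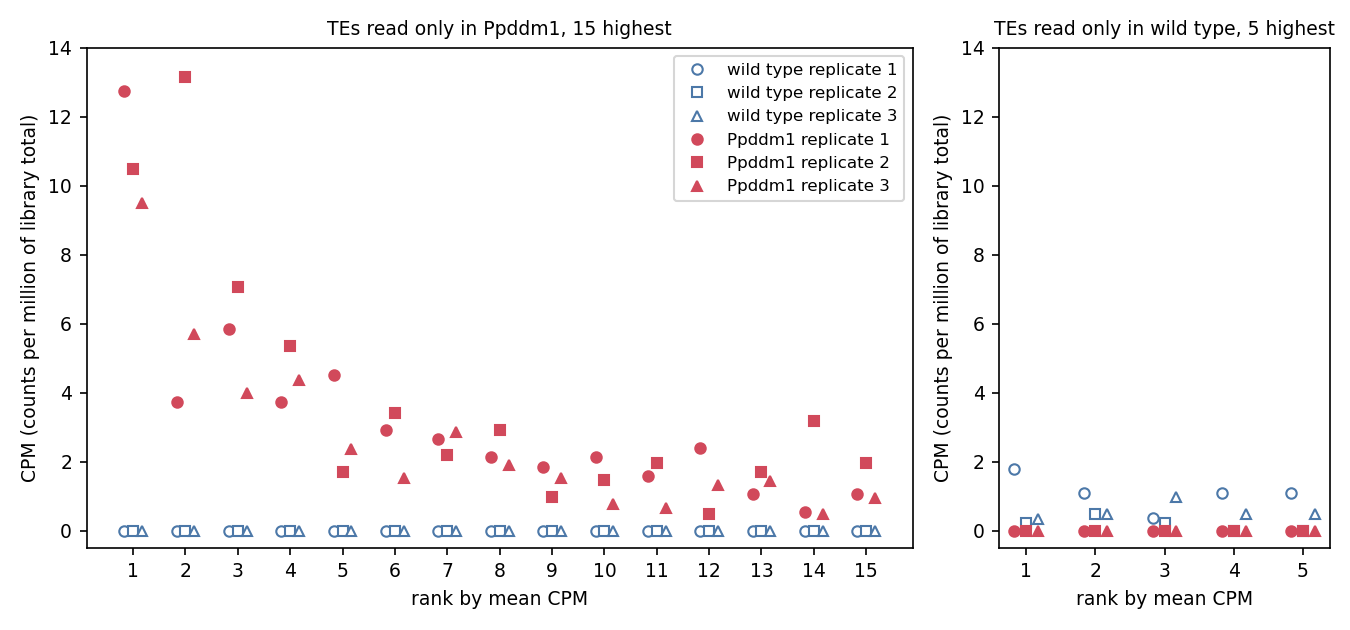
CPM in each library (vertical axis) of the 15 TEs read only in *Ppddm1* with the highest mean and of the 5 highest TEs read only in wild type (horizontal axis, rank); each point is 1 library. The first set reaches 13.2 CPM in a library and the second stays at or below 1.80 CPM.

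The highest TE of the wild type-only set, identifier 857427, had 5, 1 and 2 counts in wild type replicates 1 to 3, or 1.80, 0.234 and 0.329 CPM. The second, identifier 879326, had 3, 2 and 3 counts. In *Ppddm1* a count of 0 over 18409102 counts allows 0.163 CPM. The pooled wild type levels of the 5 highest of this set were 2.80 to 3.74 times that limit. No TE of the wild type-only set reached a mean of 1 CPM, against 25 TEs of the *Ppddm1*-only set.

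For most of the 545 TEs the absence from wild type was not resolved by the depth. In 389 TEs (71.4%), those with 2 to 4 counts, the pooled *Ppddm1* level was at or under 0.228 CPM, the level that 0 wild type counts still allow. The other 156 TEs were above that limit, of which 64 were at least 2-fold, 16 at least 5-fold and 6 at least 10-fold above it.

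Reads were spread over all 3 *Ppddm1* libraries for 156 TEs (28.6%) and over 2 libraries for 389 TEs. The same 2 numbers came out of the split at the wild type limit, but the TEs were not the same, since 42 of the TEs read in all 3 libraries had at most 4 counts. Of the 389, 191 were read in replicates 2 and 3, 145 in replicates 1 and 3, and 53 in replicates 1 and 2, the shallower pair. In the wild type-only set, 9 of 114 TEs (7.89%) were read in all 3 libraries. Among the 51 TEs with 10 or more counts and reads in all 3 *Ppddm1* libraries, the highest library exceeded the lowest by a median of 2.25 times in CPM, and by 1.22 to 9.32 times over all 51. In 20 of the 51 it was under 2 times, and in 7 it was 5 times or more. The other 5 TEs with 10 or more counts were missing from 1 library.

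The rule cut through a range of levels on each side. The 204 TEs at the lower edge had 1 count in each of 2 *Ppddm1* libraries, and the lowest mean among them was 0.113 CPM. Another 2474 TEs had no wild type count and were read in a single *Ppddm1* library, the highest of them with 5 counts there and a mean of 0.406 CPM. On the other side, 164 TEs had exactly 1 wild type count and reads in at least 2 *Ppddm1* libraries. The highest of these had 1 count in wild type replicate 2 and 29, 20 and 52 counts in *Ppddm1* replicates 1 to 3. Its mean of 5.83 CPM lay between those of the TEs ranked 2 and 3 among the 545.

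The *Ppddm1*-only set was 4.78 times as large as the wild type-only set in the deposited counts, and 2.44 times as large once every library was thinned to the smallest total, 2784259 counts. Thinning draws that many reads from each library, and the expected sizes were 296 TEs for *Ppddm1* and 121 TEs for wild type. In 20 thinnings the sizes ran from 275 to 313 and from 108 to 137. Of the TEs in the thinned *Ppddm1*-only sets, 245 to 273 belonged to the 545. In these sets 17 to 26 TEs had 10 or more counts, and in the thinned wild type-only sets 0 to 3. Genes put to the same rule gave 400 read only in *Ppddm1* and 154 read only in wild type. After thinning, the expected numbers of genes were 285 and 249, a ratio of 1.14. The difference between the ratio of TEs and that of genes was not tested.

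The excess was steeper for TEs that were read in more libraries. At the smallest total, TEs with no wild type read numbered 1550 with reads in 1 *Ppddm1* library, 214 in 2 and 82.4 in all 3. The mirrored numbers were 1103, 105 and 16.4, so that the ratio was 1.41, 2.04 and 5.03. For genes the ratio at the smallest total was 1.03, 1.11 and 1.24. In the deposited counts 156 TEs against 9 were read in all 3 libraries of a single genotype, a ratio of 17.3.

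**Figure D3:**
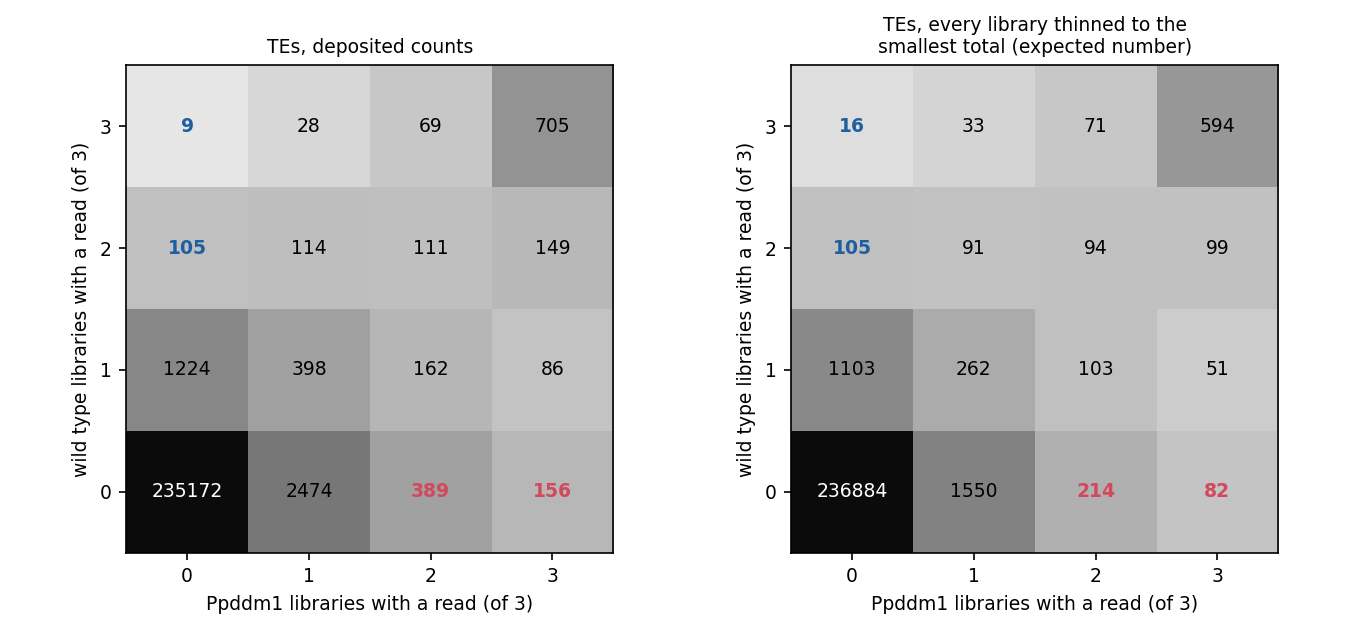
Number of TEs by how many of the 3 wild type (vertical axis) and 3 *Ppddm1* libraries (horizontal axis) had a read, in the deposited counts (left) and as the expected number with every library thinned to 2784259 counts (right); darker cells hold more TEs. The *Ppddm1*-only cells, in red, hold 389 and 156 TEs and the wild type-only cells, in blue, 105 and 9, against 214, 82.4, 105 and 16.4 after thinning.

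**Figure D4:**
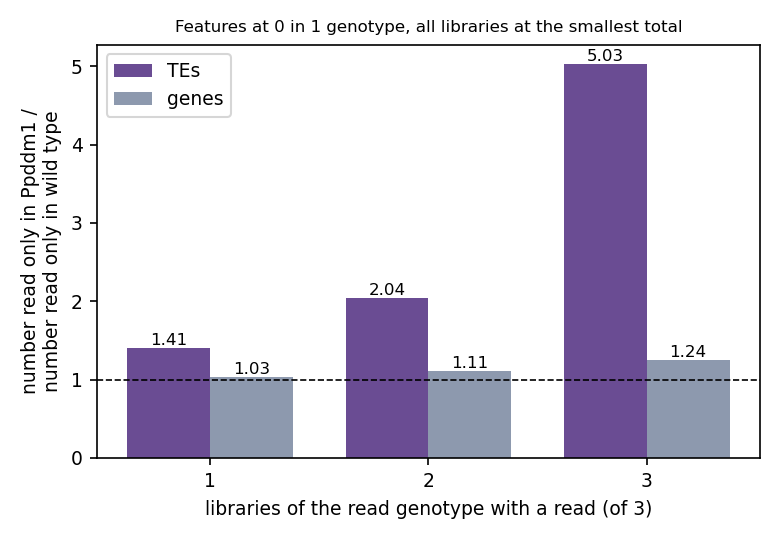
Features read only in *Ppddm1* divided by features read only in wild type (vertical axis) with every library at the smallest total, by the number of libraries with a read (horizontal axis), for TEs and genes; the dashed line marks a ratio of 1. The TE ratio goes from 1.41 to 5.03 and the gene ratio from 1.03 to 1.24.

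Single libraries moved the sizes of the deposited sets strongly, since leaving out a library changes both the depth and how many libraries must be silent or read. The *Ppddm1*-only set held 347, 301 and 209 TEs without *Ppddm1* replicates 1, 2 and 3. The wild type-only set held 70, 33 and 29 TEs without wild type replicates 1, 2 and 3, and 213 without *Ppddm1* replicate 3. Without *Ppddm1* replicate 3, the deepest library, the ratio of the sets was 0.981, with 2 *Ppddm1* libraries set against 3 of wild type. Without *Ppddm1* replicates 1 and 2 it was 2.59 and 2.20, and without wild type replicates 1, 2 and 3 it was 8.49, 20.03 and 21.7. With 2 libraries of each genotype at equal depth, a comparison chosen after seeing the data, the ratio was between 2.30 and 2.71 in all 9 choices of libraries. In batch 1 alone, 240 TEs were read in both *Ppddm1* libraries and neither wild type library, and 68 TEs the other way. Batch 2, with a single library per genotype, gives no such set.

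More TEs were detected in each *Ppddm1* library than in any wild type library when all were held to 2784259 counts. The expected number of TEs with a read was 1470, 1558 and 1411 in the wild type libraries and 1681, 1951 and 1746 in the *Ppddm1* libraries. Of these, 288, 304 and 226 in *Ppddm1* replicates 1 to 3 belonged to the 545. With both sets left out, the numbers were 1350 to 1494 in wild type and 1393 to 1647 in *Ppddm1*, and the genotypes overlapped. Leaving them out took 53 to 63.3 TEs from the wild type libraries and 226 to 304 from those of *Ppddm1*. The sets were chosen on these same libraries, so nothing is read from the overlap. Genes with a read at this depth ranged from 19816 to 20105 in wild type and from 19758 to 20158 in *Ppddm1*.

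Libraries that had no part in the choice of TEs also held reads of such TEs more often in *Ppddm1*. For each replicate number, TEs were chosen on the other 4 libraries, as silent in both wild type libraries and read in both *Ppddm1* libraries, and then looked up in the left-out pair. The intervals given for the shares take the TEs as independent of each other and hold no spread between libraries. With replicate 1 left out, 375 TEs were chosen, of which 45.1% had a read in the left-out *Ppddm1* library (Clopper-Pearson 95% interval 39.95% to 50.3%) and 7.47% in the left-out wild type library (5.02% to 10.6%). With replicate 2 left out, 374 TEs were chosen, and the shares were 53.7% (48.5% to 58.9%) and 19.5% (15.6% to 23.9%). With replicate 3 left out, which is batch 2, 240 TEs were chosen, and the shares were 76.7% (70.8% to 81.9%) and 12.9% (8.95% to 17.8%). In each of the 3 pairs the *Ppddm1* share was thus the higher. The left-out libraries alone were then brought to the smallest total. The expected shares were 38.0%, 43.7% and 47.2% in *Ppddm1* and 7.47%, 13.9% and 8.26% in wild type. The *Ppddm1* share was again the higher, but the TEs were still chosen on the full counts of the other 4 libraries.

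The left-out summed levels went the same way. They were 127, 157 and 103 CPM in the left-out *Ppddm1* libraries 1, 2 and 3 and 12.9, 22.2 and 11.7 CPM in the wild type libraries. TEs that had 10 or more counts when chosen were read again in the left-out *Ppddm1* library in 38 of 38, 40 of 45 and 22 of 22 cases, and in the left-out wild type library in 2, 4 and 3 cases. The 3 choices share TEs and each left-out pair is 1 library of each genotype, so no test was made.

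TEs chosen the opposite way, as read in 2 wild type libraries and silent in 2 *Ppddm1* libraries, had a read in the left-out libraries of both genotypes at closer shares, a difference that was not tested. With replicates 1, 2 and 3 left out they numbered 81, 42 and 68. In the left-out wild type library 13.6%, 31.0% and 45.6% of them had a read, and in the left-out *Ppddm1* library 13.6%, 21.4% and 57.4%. With the left-out libraries at the smallest total these were 13.6%, 22.9% and 35.2% in wild type and 10.98%, 15.1% and 26.6% in *Ppddm1*. Summed over these TEs, the left-out wild type libraries had 7.54, 4.21 and 16.0 CPM and the left-out *Ppddm1* libraries 6.10, 2.44 and 9.02 CPM.

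**Figure D5:**
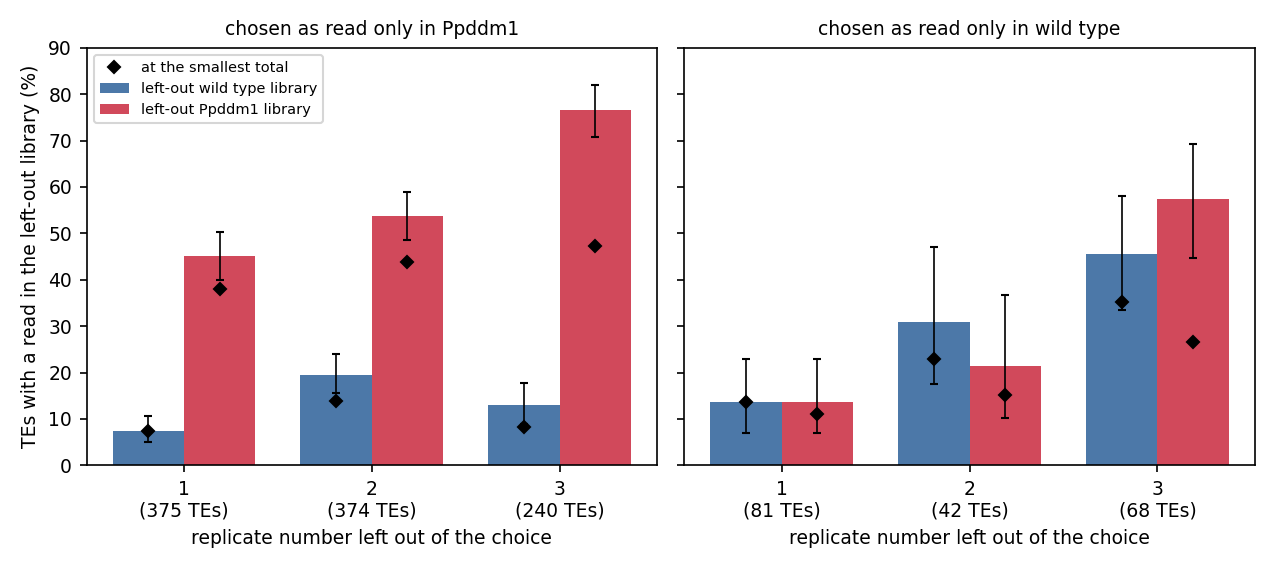
Share of TEs with a read in the left-out library (vertical axis, %) for TEs chosen on the other 2 replicate numbers as read only in *Ppddm1* (left) or only in wild type (right), by the replicate number left out (horizontal axis); bars are the 2 left-out libraries with 95% Clopper-Pearson intervals and diamonds the expected share at the smallest total. On the left the *Ppddm1* bars stand at 45.1%, 53.7% and 76.7% against 7.47%, 19.5% and 12.9% in wild type. The intervals take the TEs as independent and hold no spread between libraries.

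Few of the 545 TEs had enough reads for a test of differential expression. In edgeR's quasi-likelihood fit, which took every gene or TE whose summed counts reached 10, 56 of the 545 were among the 1021 TEs tested. With an adjusted p below 0.05 and a change of 2-fold or more as the call, 25 of these 56 were called higher in *Ppddm1*, beside 4.51% of all TEs tested and 0.741% of all 20647 features tested. The 4.51% stands for 46 TEs, and the 25 are among them. Calls lower in *Ppddm1* were 1.47% of the TEs and 2.41% of all features tested, and calls in either direction 3.15% of all features. The rule used the same contrast, so nothing is read from this count, and a TE with no wild type read was tested only if *Ppddm1* held at least 10 of its reads. The called TEs held from 17 to 191 counts. Leaving out wild type replicate 2 or 3 brought the number called to 8 and 7, each of 56 tested. Leaving out *Ppddm1* replicate 2 or 3 brought it to 11 of 41 and 8 of 19 tested. Features called higher in these fits were 94 of 20381, 74 of 20223, 108 of 20368 and 76 of 19890. With batch as a term 13 of 56 TEs were called, beside 118 of 20647 features. In batch 1 alone it was 3 of 19, beside 35 of 19318 features. No TE of the wild type-only set was tested. When every feature with a count was fitted, edgeR called 0 of the 114 lower and 30 of the 545 higher. In that fit 37 of the 114 and 104 of the 545 had an unadjusted p under 0.05. Their direction was fixed by the rule and the share over all features was not counted, so nothing is read from these numbers. Over all 29418 features of that fit, 197 were called higher and 503 lower.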

How the data were processed

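RNA-seq counts of 6 protonema libraries, 3 of wild type and 3 of *Ppddm1*, were taken as deposited. Trimming was done by the authors in Trim Galore 0.6.0 with cutadapt 1.15 and alignment in STAR 2.7.0f (versions from the submitters' processing notes), and the authors assigned multimapped reads at random. The table the authors deposited holds raw counts for each gene and TE, not normalized. Which program counted, and whether by strand, is not given in the sources used here. Genotype, replicate and batch came from the sample labels.

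The members and lists were chosen with earlier results of these data known. CPM used the library totals. Thinned sizes are exact hypergeometric expectations, checked with 20 drawn thinnings. A group without counts was set to 3 counts over the group. Features with at least 10 counts were fitted together in edgeR 4.0.16 (R 4.3.3, TMM factors, robust quasi-likelihood fit, genotype alone) with Benjamini-Hochberg adjustment. DESeq2 1.42.0 and limma-voom (limma 3.58.1) were alternatives. The fit was tested on simulated data. TEs named are the 15 highest by mean *Ppddm1* CPM and the 5 highest of the wild type-only set, with identifiers for 2 of each set. Of the TEs just outside the rule, the highest with 1 wild type count and the highest read in 1 *Ppddm1* library are described. PpDDM1 checked the labels. Libraries of the same genotype all differed by more than sampling noise (chi-square per feature at least 1.90). Between replicates 2 and 3, which carry different batch labels, it was 1.90 in wild type and 3.84 in *Ppddm1*. Replicate 1 stood further from replicates 2 and 3, at 6.51 and 7.07 in wild type and 8.39 and 7.72 in *Ppddm1*. Bisulfite data were not analysed here. Figures were drawn with matplotlib 3.10.9.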

Additional observations from a re-analysis of the deposited data

How the results depend on the processing

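With the rule applied anew under each setting, the *Ppddm1*-only set numbered 141 TEs with 2 counts required in 2 libraries, 156 with reads in all 3, 240 in batch 1 alone, and 296 at the smallest total (exact expectation and mean of thinnings), in place of 545. Leaving out 1 library gave 209 to 661. The sets of batch 1, of the smallest total and of a left-out library can hold TEs outside the 545. The wild type-only set numbered 12, 9 and 68 TEs under the first 3 of these settings in place of 114, and 29 to 213 with 1 library left out. The ratio of 4.78 was 11.8 and 17.3 under the first 2, and 2.44 (expectation) and 2.41 (mean of thinnings) at the smallest total. It ran from 0.981 to 21.7 with 1 library left out, and from 2.30 to 2.71 with 1 of each genotype left out at equal depth. The number of the 545 TEs called higher, 25 of 56 tested by edgeR, was 4 of 4 with filterByExpr and 13 of 56 with batch as a term. It was 3 of 19 in batch 1 alone and 12 of 20 after thinning. With 1 library left out it was 7 to 19, with 19 to 56 tested. The TEs called need not be among the 25. Calls higher over all features, 153 of 20647 in edgeR, were 102 of 17086, 118 of 20647, 35 of 19318 and 95 of 19507 in the same order. With 1 library left out they were 74 to 194. DESeq2 called 18 of 56, limma-voom 27 of 56 and the older edgeR fit, added after seeing the data, 21 of 56. Beside these, 131, 146 and 138 of all 20647 features were called higher. The 651 calls over all features became 264 in batch 1 alone and 420 to 725 with 1 library left out. The summed level of 178 CPM was 137 CPM without the 10 highest TEs. Over the 15 TEs named and the alternatives that tested them, 196 fits kept the side of the threshold, 42 lost the call and 3 gained it. Alternatives in which a TE fell below the filter are not in these counts, among them filterByExpr for the TEs ranked 5 to 15. Their direction was fixed by the choice of TEs with no wild type read. The replicate numbers were not taken as pairs, since the deviations of libraries with the same number correlated at 0.23, 0.17 and -0.01 for replicates 1, 2 and 3, and the third wild type library correlated best with *Ppddm1* replicate 2. With the replicate block, 56 of the 545 TEs were tested and 24 called higher, beside 196 of all 20647 features. In that fit 0 of the wild type-only set were tested. Causes were not tested, except that a smaller number of libraries or reads by itself changes which TEs can meet the rule.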

Other observations

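Of the 545 TEs, 24 (4.40%) had another of the 545 at an adjoining identifier number, before or after, in 11 runs of at most 3 TEs. In the wild type-only set none of 114 had such a neighbour. Among all TEs with a read, 980 of 6179 (15.9%) were next to another TE with a read, and 99 of the 545 (18.2%) were next to a TE with a read of any kind. The identifiers run without a gap over all TEs, but no source used here says what their order stands for, and the sets differ in size, so these shares are not compared. The TE ranked 3, with 22, 29 and 42 counts in *Ppddm1* replicates 1 to 3, stood beside a TE with 0, 3 and 1 counts. The TE ranked 15, with 4, 8 and 10 counts, closed a run of 3 in which the others had 1, 1 and 5 counts and 2, 2 and 3 counts. All 3 TEs of that run were read in every *Ppddm1* library and in no wild type library.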
